A study of Mus musculus with 2 samples.

Results

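Imprinted genes are genes transcribed mainly from the allele inherited from 1 parent. A set of 39 well-known mouse imprinted genes was chosen by symbol, and 38 of them were measured among 43346 Ensembl genes. Peg13 is not analysed here. The 38 comprised 32 protein-coding and 6 noncoding genes from 18 imprinted domains. From textbook knowledge, 21 were taken as paternally expressed, 14 as maternally expressed in at least some tissues, and 3 (Gnas, Grb10 and Inpp5f) as mixed, because their transcripts differ in parental origin.

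The tissue was hindbrain of healthy B6NCrl mouse embryos at 16.5 days, with no mutation or treatment named in the labels. There was 1 group with 2 biological replicates, each pooled from embryos of both sexes, 37 of them for replicate 2. Total RNA longer than 200 bases was sequenced from 10 ng per library, with spike-in RNAs added. All embryos were of 1 strain and the values are per gene, so the parental alleles themselves were not measured, and "paternal" and "maternal" below name what is known of each gene.

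Imprinting is set in the germ line, where DNA methylation is laid down on control regions in either the egg or the sperm. After fertilization the mark is maintained on 1 allele, with the zinc finger protein ZFP57 binding the methylated motif at many of these regions, and neighbouring genes in a cluster then respond to it, often through a long noncoding RNA. In brain many imprinted genes are abundant in neurons, and some, such as Ube3a, are imprinted there and not in other tissues.

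Library sizes were close, with 41543180 expected counts over Ensembl genes in replicate 1 and 41346951 in replicate 2. An expected count is the number of reads that the authors' model assigned to a gene. Levels are in TPM, which corrects for length and can therefore be set side by side for different genes, and a gene was called detected at 1 TPM or more in both replicates. All 8 hindbrain marker genes were detected, and their summed level was 544 TPM in replicate 1 and 614 TPM in replicate 2. The pools differed in other tissue: the summed level of 10 skeletal muscle and cartilage markers was 370 TPM in replicate 1 and 24.1 TPM in replicate 2, that of 8 forebrain markers 19.5 and 0.39 TPM, and that of 8 markers of meninges and fibroblasts 813 and 448 TPM. In such bulk samples, fewer cells of a type and less RNA per cell cannot be told apart. With 2 libraries of 1 group no test between groups exists, and the smallest p that permuting them could give is 0.5, so no p-value is printed.

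Promoter windows of a few of these genes are shown first because the results below turn on which start site is used and because several hold the motif that ZFP57 is known to bind. The windows run from 250 bases before to 50 bases after a RefSeq start on GRCm38.p6, the same build as mm10. Each is printed along the gene's strand, with the letters TGCCGC, or GCGGCA where the motif lies on the other strand, in capitals. The Mest window is chr6:30737800-30738099 on the plus strand and the Nap1l5 window is chr6:58907077-58907376 on the minus strand. The Snrpn window, which Snurf shares, is chr7:60005150-60005449 on the minus strand. Grb10 has an upstream window at chr11:12037371-12037670 and a downstream one at chr11:12027922-12028221, both on the minus strand. The Gnas window is that of the start of the stimulatory G protein alpha subunit, chr2:174329756-174330055 on the plus strand.
Mest: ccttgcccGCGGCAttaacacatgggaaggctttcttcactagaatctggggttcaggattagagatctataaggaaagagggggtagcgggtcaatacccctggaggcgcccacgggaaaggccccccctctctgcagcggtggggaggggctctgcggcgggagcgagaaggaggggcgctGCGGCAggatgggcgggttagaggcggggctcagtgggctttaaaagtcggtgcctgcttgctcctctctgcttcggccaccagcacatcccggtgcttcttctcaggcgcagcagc
Nap1l5: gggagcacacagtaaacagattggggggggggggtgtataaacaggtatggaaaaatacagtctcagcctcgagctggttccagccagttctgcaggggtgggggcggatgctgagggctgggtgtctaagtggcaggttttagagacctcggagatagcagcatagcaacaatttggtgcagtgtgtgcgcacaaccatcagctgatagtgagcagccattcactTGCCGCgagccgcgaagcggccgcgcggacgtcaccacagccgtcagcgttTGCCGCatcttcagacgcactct
Snrpn: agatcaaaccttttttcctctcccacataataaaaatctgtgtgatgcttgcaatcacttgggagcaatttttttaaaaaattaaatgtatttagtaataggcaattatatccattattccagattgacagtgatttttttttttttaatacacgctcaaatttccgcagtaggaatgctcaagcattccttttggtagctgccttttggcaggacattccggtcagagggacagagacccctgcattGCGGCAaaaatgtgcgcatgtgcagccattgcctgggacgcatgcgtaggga
Grb10 upstream: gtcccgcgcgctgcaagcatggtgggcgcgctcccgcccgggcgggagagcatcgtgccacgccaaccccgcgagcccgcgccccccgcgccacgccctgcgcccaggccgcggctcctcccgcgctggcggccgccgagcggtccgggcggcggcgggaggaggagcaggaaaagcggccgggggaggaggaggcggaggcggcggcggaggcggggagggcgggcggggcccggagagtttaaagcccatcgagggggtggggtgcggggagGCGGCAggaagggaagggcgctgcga
Grb10 downstream: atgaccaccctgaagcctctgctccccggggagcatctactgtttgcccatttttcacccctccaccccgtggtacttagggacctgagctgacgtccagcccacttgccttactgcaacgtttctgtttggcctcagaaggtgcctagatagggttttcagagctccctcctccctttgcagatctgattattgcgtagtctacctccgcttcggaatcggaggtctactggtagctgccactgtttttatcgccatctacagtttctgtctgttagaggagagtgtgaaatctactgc
Gnas: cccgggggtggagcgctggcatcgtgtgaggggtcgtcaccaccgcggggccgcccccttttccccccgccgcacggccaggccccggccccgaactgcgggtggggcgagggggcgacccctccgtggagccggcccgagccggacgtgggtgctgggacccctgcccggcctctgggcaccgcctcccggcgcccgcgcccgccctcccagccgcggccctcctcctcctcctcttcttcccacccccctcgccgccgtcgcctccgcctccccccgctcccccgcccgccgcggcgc

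The Mest and Nap1l5 windows each held the motif at 2 positions and 17 CpG dinucleotides. The Snrpn window held 1 motif and 7 CpG. The upstream Grb10 window held 1 motif and 45 CpG, whereas the downstream one held no match and 9 CpG, and the Gnas window held no match and 40 CpG. Windows were found for 31 of the imprinted genes, and overlapping windows on 1 strand were counted as 1 place. Of 41 places, 10 held the motif on either strand, which is 24.4% against 11.7% of all 30704 places in the table. The places with 2 or more were those of Mest and Nap1l5, and 1.58% of all places had as many. The motif contains a CpG, and the imprinted gene places also had more CpG, with a median of 15 against 7 for all places, so the shares describe these letters and are not evidence of binding. The other genes with a match were Commd1, Copg2, Meg3, Nnat, Plagl1 and Zim1.

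Nearly all of the imprinted genes were transcribed in the embryonic hindbrain. Detected at 1 TPM in both replicates were 36 of the 38. These were 30 of the 32 protein-coding members, where 63.5% of all protein-coding genes were detected, and all 6 noncoding members, where 15.7% of all long noncoding genes were. The exceptions were Ascl2, a transcription factor of the placental trophoblast, at 1.06 TPM in replicate 1 and 0.77 TPM in replicate 2, and Phlda2, which limits placental growth, at 0.48 and 0.47 TPM. Both lie in the Kcnq1ot1 domain. The median of the mean level was 47.0 TPM over the 38 members and 48.3 TPM over the 32 protein-coding ones, against 5.82 TPM over all protein-coding genes. A level of 100 TPM in both replicates was reached by 9 of the 32 protein-coding members, or 28.1%, against 7.76% of protein-coding genes. Members chosen because they are well known are not a random draw of imprinted genes, so these shares describe the list.

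**Figure D1:**
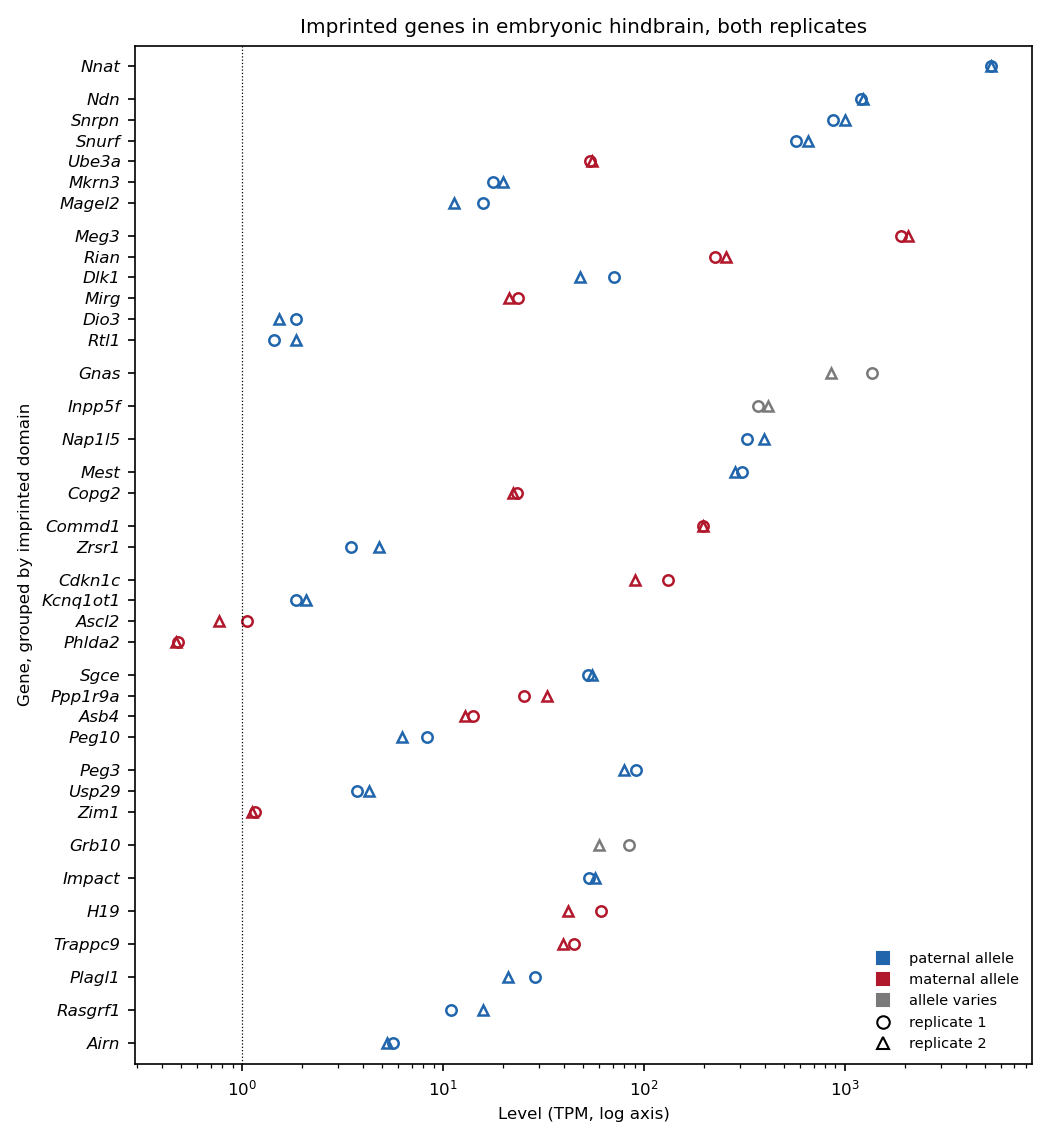
Level of each measured imprinted gene in TPM on a log axis, grouped by domain, with circles for replicate 1 and triangles for replicate 2, coloured by the allele known to be expressed, and a dotted line at 1 TPM. Levels ran from 0.475 TPM for Phlda2 to 5355 TPM for Nnat (means of both replicates), and the 2 symbols of a gene lie close together relative to that range.

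A few genes carried most of the signal. Nnat, which encodes neuronatin, a small membrane protein of the endoplasmic reticulum, stood at 5363 TPM in replicate 1 and 5346 TPM in replicate 2. Meg3, a maternally expressed long noncoding RNA, stood at 1913 and 2074 TPM. Ndn, which encodes necdin, a MAGE family protein of postmitotic neurons, stood at 1203 and 1239 TPM. These 3 genes were above 1000 TPM in both pools, a level that 0.326% of protein-coding genes reached. With Gnas and Snrpn they made up 78.7% of the summed level of the 38 genes, and the 38 together made up 1.43% of the TPM of all Ensembl genes in replicate 1 and 1.40% in replicate 2.

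In the Prader-Willi/Angelman domain (chr7:59228750-62420139), the paternally expressed genes far outweighed the maternally expressed one. Snrpn, which encodes the spliceosomal protein SmN, was at 875 TPM in replicate 1 and 1004 TPM in replicate 2. Snurf, whose coding sequence sits on the same transcript, was at 572 and 655 TPM. Its annotated span lies wholly inside that of Snrpn on the same strand and reads were divided between them, so the split between them is uncertain. Ube3a, an E3 ubiquitin ligase whose paternal copy is silent in neurons, was at 54.2 and 55.5 TPM. Snrpn was thus 17.1-fold above Ube3a, and the deposited intervals of these genes did not overlap in either replicate. Mkrn3, a RING finger protein, was at 17.7 and 19.9 TPM, and Magel2, a MAGE family protein related to necdin, at 15.8 and 11.4 TPM. Ndn was 65.1-fold above Mkrn3 and 91.0-fold above Magel2, although Magel2 lies only 26747 bases from it. The summed paternal level, which counts both Snrpn and Snurf, was 51.1-fold the level of Ube3a. The level of Snurf in that sum rests on 1681 and 1972 expected counts over an annotated length of only 216 bases. Snrpn had 40451 and 47518 expected counts.

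The Dlk1-Dio3 domain (chr12:109452823-110281097) had the opposite balance, with maternally expressed noncoding RNAs far above the paternally expressed coding genes. Dlk1, a membrane ligand related to Notch ligands, was at 71.3 TPM in replicate 1 and 48.2 TPM in replicate 2. Dio3, the deiodinase that inactivates thyroid hormone, was at 1.86 and 1.53 TPM, and Rtl1, a protein derived from a retrotransposon, at 1.45 and 1.85 TPM. Dlk1 was 34.7-fold above Dio3 and 35.8-fold above Rtl1. In their order along the chromosome, the maternal RNAs had ever lower levels: Meg3 was 8.26-fold above Rian, a host of small nucleolar RNAs, at 226 and 258 TPM, and Rian was 10.7-fold above Mirg, a host of microRNAs, at 23.6 and 21.4 TPM. Meg3 was 34.0-fold above Dlk1, and the summed maternal level was 36.4-fold the summed paternal level. Counts for Meg3 and Rtl1 were not whole, so some reads were shared with other annotated genes.

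The noncoding genes of this domain span many microRNA hairpins, whose mature products are shorter than the RNA sequenced here and were not measured. Mirg spans 14 hairpins with 26 mature microRNAs in the RefSeq table, and Rtl1 spans 7, of which 1 is on its own strand. H19 spans the hairpin of miR-675 and Mest that of miR-335. Among the Mirg products, miR-453 and miR-496a-5p share a seed (bases 2 to 8, in capitals), and they are shown because no other pair within these genes does.
mmu-miR-453: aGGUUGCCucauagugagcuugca
mmu-miR-496a-5p: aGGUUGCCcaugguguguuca

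The other clusters with genes of both parental origins divided in both directions. Mest, a hydrolase family protein, was at 309 and 285 TPM, 13.0-fold above the maternally expressed Copg2, a coatomer subunit at 23.4 and 22.4 TPM whose span overlaps that of Mest by 912 bases on the other strand. Peg3, a zinc finger protein, was at 91.1 and 79.8 TPM. It was 21.3-fold above Usp29, a ubiquitin protease, at 3.74 and 4.27 TPM, and 74.8-fold above the maternally expressed Zim1, at 1.16 and 1.12 TPM. The annotated span of Usp29 begins 146 bases from that of Peg3 on the other strand. Its only quantified transcript starts far from there, at chr7:6961160, so its level is not that of a start beside Peg3. In the opposite direction, Commd1, a regulator of copper transport and NF-kappaB with a maternal bias in brain, was at 198 TPM in both replicates. It was 48.4-fold above Zrsr1, a splicing factor gene at 3.50 and 4.79 TPM that lies wholly within Commd1 on the other strand. Counts for Mest, Copg2, Commd1 and Zrsr1 were not whole, so some reads were shared with other annotated genes.

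Cdkn1c, the cyclin-dependent kinase inhibitor p57, was at 132 TPM in replicate 1 and 90.4 TPM in replicate 2. It was the only 1 of the 3 maternal genes of the Kcnq1ot1 domain in the list above 2 TPM, 230-fold above Phlda2. Kcnq1ot1, the paternal RNA that silences that domain, was at 1.86 and 2.08 TPM. Its low TPM came with 3928 and 4514 expected counts, because its annotated transcript of 84395 bases divides the reads over a great length. In the Peg10-Sgce domain the 2 origins were nearer each other, with paternal genes 1.45-fold above maternal ones. With protein-coding transcripts alone that order did not hold: the log2 ratio of the paternal over the maternal sum was 0.05 in replicate 1 and -0.33 in replicate 2. Sgce, which encodes epsilon-sarcoglycan, was at 53.1 and 55.4 TPM, 7.50-fold above Peg10, a retrotransposon-derived gene at 8.37 and 6.25 TPM whose start lies 98 bases away. The maternally expressed Ppp1r9a, the actin-binding protein neurabin, was at 25.3 and 33.0 TPM, and Asb4, a SOCS box protein, at 14.2 and 12.9 TPM.

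**Figure D2:**
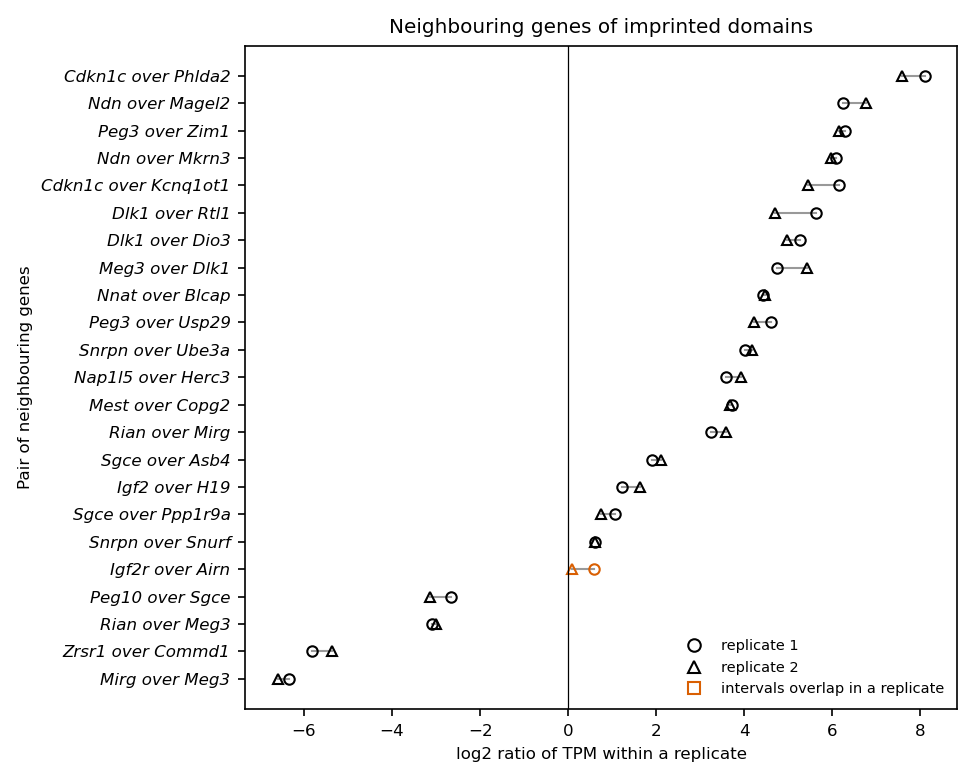
Log2 ratio of TPM between genes of the same imprinted domain or host, for each of 23 pairs, with a circle for replicate 1 and a triangle for replicate 2 joined by a line. In 22 pairs the deposited intervals were apart in both replicates and the ratio had 1 sign, and for Igf2r over Airn (orange) they overlapped in replicate 2.

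Across 23 pairs of genes of the same domain or host, 22 differed, meaning that the deposited intervals of the genes were apart in the same direction in both replicates. Among all genes with a mean of 1 TPM or above, 86.1% of pairs next to each other along the chromosome differed in that sense. The chosen pairs are not all adjacent, some share a gene, and Phlda2 was below that mean. The count of pairs that differed is therefore no more than a description, and it includes Snrpn over Snurf, whose split is uncertain. The exception was Igf2r over Airn, the paternal RNA that silences Igf2r, with log2 ratios of 0.58 in replicate 1 and 0.10 in replicate 2. Airn was at 5.68 and 5.30 TPM. Airn overlaps Igf2r by 28354 bases on the other strand, and whether counting used strand is not given. H19, a maternal noncoding RNA, was at 61.4 and 41.9 TPM, and its paternal neighbour Igf2 was 2.69-fold above it, a log2 ratio of 1.43 that was 0.65 with Igf2's coding transcripts alone. A pair of imprinted genes that lie wholly inside the span of another gene on the other strand were far above that host. Nap1l5, related to nucleosome assembly proteins, was at 325 and 399 TPM, 13.6-fold above its host Herc3, and Nnat was 21.8-fold above its host Blcap.

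Taken by parental origin, neither class stood clearly above the other. All 21 paternal members and 12 of 14 maternal members were detected. The median level of the paternal members was 28.9 TPM in replicate 1 and 21.1 TPM in replicate 2, and that of the maternal members 35.2 and 36.3 TPM. The log2 ratio of these medians was -0.52, but it turned to 0.61 when Gnas, Grb10 and Inpp5f were counted as paternal. It also turned to 1.06 over protein-coding members alone, where the median was 54.2 TPM for 19 paternal and 26.0 TPM for 10 maternal genes. The summed level was higher for the paternal members, at 9140 ± 175 TPM against 2784 ± 92.8 TPM (SD, n = 2), and Nnat alone held more than the rest of the paternal sum. The 4 maternal noncoding RNAs (Meg3, Rian, Mirg and H19) had a median of 147 TPM, and the 2 paternal ones (Airn and Kcnq1ot1), both silencing RNAs, a median of 3.73 TPM.

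Several of these genes have more than 1 start site, and in Gnas, Grb10 and Inpp5f the transcripts differ in parental origin. Most of the TPM lay at 1 start site in Inpp5f, Gnas and Snrpn. Starts within 1000 bases of each other were joined, and shares are percentages of the gene's TPM over annotated transcripts. Inpp5f, a phosphoinositide phosphatase, was at 371 and 414 TPM. The start 76218 bases downstream of its first, that of the variant known as paternally expressed in brain, held 97.5% ± 0.20 (SD, n = 2), and the full-length start 2.24% ± 0.23. For Gnas, the start of the G protein alpha subunit held 90.1% ± 2.36. The first start, that of the maternal Nesp transcripts, held 3.76%, the start 13539 bases downstream 1.08%, and the start 43250 bases downstream 4.21%. For Snrpn, 94.8% ± 0.39 came from the start beside the window printed above, and 5.22% from a start 135108 bases upstream of it.

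Grb10, an adaptor that restrains insulin and growth factor receptors, was divided between starts. It is known in mouse for a maternal transcript from the upstream promoter in most tissues and paternal transcripts from downstream promoters in neurons. The upstream start held 74.6% of its TPM in replicate 1 and 64.4% in replicate 2. Of the downstream starts, that of the window printed above, with 9 CpG, held 5.86% and 10.3%, and 1 a little further down held 19.3% and 23.1%. Counted in reads, the upstream start held 91.0% and 84.2%, so the share depends on the short annotated length of the last transcripts. The level of the upstream start was 63.2 TPM in replicate 1 and 38.5 TPM in replicate 2, and that of the first downstream start 4.97 and 6.19 TPM.

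**Figure D3:**
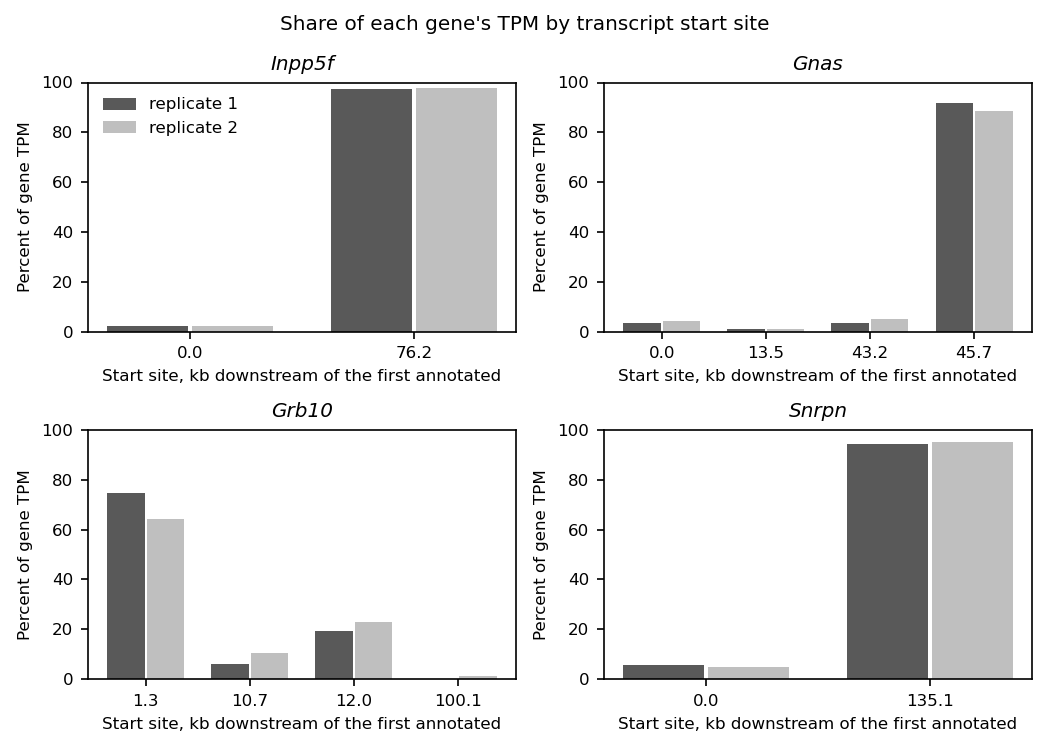
Percent of a gene's TPM by annotated start site in replicate 1 (dark) and replicate 2 (light) for Inpp5f, Gnas, Grb10 and Snrpn, with starts placed by distance in kilobases from the first annotated one and starts with a mean under 0.5% left out. One start holds over 85% in both replicates for Inpp5f, Gnas and Snrpn, while Grb10 is divided and its upstream share is 74.6% and 64.4%.

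Mest and Plagl1 also have alternative starts. For Mest, the start whose window is printed above held 68.8% of its TPM in replicate 1 and 59.1% in replicate 2, and the starts 14503 bases upstream held 0.295% and 0.161%. The remainder lay mostly in 1 transcript that has no match in the annotation used here. Plagl1, a zinc finger transcription factor that regulates other imprinted genes, was at 28.9 and 21.1 TPM, with 98.6% and 99.3% from 1 group of starts.

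Most protein-coding members gave mainly protein-coding transcripts, as did protein-coding genes at large. The median share of TPM in such transcripts was 100% over 30 members whose mean was at least 1 TPM, against 98.5% over protein-coding genes at that level. The share was over 99% in 17 of the 30 members, against 48.1% of genes. It was under 75% in Peg10, Sgce, Mest and Copg2, against 20.3% of genes. In members with 1 annotated transcript, such as Ndn, Snurf, Ube3a and Impact, a share of 100% was fixed by the annotation. Cdkn1c, Asb4 and Dio3 likewise have only coding transcripts annotated. The counts therefore partly reflect the annotation and are no trait of the members. Transcripts with no match in the annotation, whose type is therefore unknown, count as not coding here. They held 31.6% and 42.7% of the TPM of Peg10, which is all of its share not called coding, 26.6% and 35.1% of that of Mest, and 5.58% and 9.84% of that of Sgce. Copg2 had none, and its other share lay in processed transcripts. A leading transcript of 1 exon was found in 8 coding members (Ndn, Nap1l5, Mkrn3, Magel2, Zrsr1, Usp29, Dio3 and Ascl2). Of the 30 with a mean of at least 1 TPM these were 7, against 3.06% of protein-coding genes at that level. Their median level was 8.87 TPM, and that of the 24 with several exons 55.0 TPM. Ndn and Nap1l5 stood far above the other 6.

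The remaining single-gene loci were all expressed at moderate levels. Impact, which inhibits the stress kinase GCN2, was at 53.2 TPM in replicate 1 and 57.2 TPM in replicate 2. Trappc9, a subunit of a vesicle tethering complex that is maternally biased in brain, was at 45.1 and 39.5 TPM. Rasgrf1, an exchange factor for Ras, was at 11.0 and 15.9 TPM. The deposited intervals of the pools were apart in each of these 3. Impact and Rasgrf1 were higher in replicate 2, and Trappc9 was higher in replicate 1. Across the data, 24.4% of genes averaging at least 10 TPM were apart with replicate 1 higher, and 12.8% with replicate 2 higher. With only 3 loci, the count is no more than a description.

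Between the pools, none of the 36 members whose mean was at least 1 TPM was past 2-fold, by counts scaled with TMM. Of 16037 genes, 1.55% were past it on the side of replicate 1 and 2.95% on the side of replicate 2. With shares that low, none among 36 is no trait of the members. The log2 ratio of replicate 2 over replicate 1 ran from -0.64 for Gnas to 0.50 for Zrsr1. Its median was 0.05 over the members and -0.0028 over all genes. The deposited intervals of the pools were apart for 10 members higher in replicate 1, where 19.6% of genes were, and for 13 members higher in replicate 2, where 9.88% of genes were. Intervals narrow as counts rise, and members were abundant. At a mean of 10 TPM or more the counts were 10 and 10 of 28, against 24.4% and 12.8% of genes. The member shares thus stayed above those of genes on both sides with that filter, and the reason was not tested.

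Gnas was at 1363 TPM in replicate 1 and 855 TPM in replicate 2, with intervals apart. That difference of 1.56-fold was the furthest from 0 on the TMM scale, but scaled to the spike-ins its log2 ratio was -0.19 and that of Zrsr1, at 0.95, was the furthest. The 9 lowest log2 ratios, from -0.64 to -0.37, were those of Gnas, Peg10, Grb10, Cdkn1c, Dlk1, H19, Plagl1, Magel2 and Dio3. The 4 highest, from 0.35 to 0.50, were those of Nap1l5, Rasgrf1, Rtl1 and Zrsr1. Scaled to the spike-ins, which shift all ratios by 0.45, the ratios of Dlk1, H19, Plagl1, Magel2 and Dio3 were at or just above 0, while Gnas, Peg10, Grb10 and Cdkn1c stayed higher in replicate 1. A list of 16 genes known as a network of coregulated imprinted growth genes, 12 of them members here, had a median log2 ratio of -0.34, and 12 of the 16 were below 0, where 50.5% of all genes were. Scaled to the spike-ins the median turned to 0.11 and 5 of the 16 were below 0. All genes shift by the same 0.45, and few lie below 0 on that scale. By TMM the 5th percentile of the log2 ratio over protein-coding genes with a mean of at least 1 TPM was -0.47. In TPM the muscle and cartilage markers (10 of 10) and the markers of meninges and fibroblasts (8 of 8) were also higher in replicate 1, at the summed levels given above. Those of endothelium and pericytes (6 of 6) were higher there too, with sums of 185 and 167 TPM. At a mean of 1 TPM, log2 ratios below 0 by TMM were 9 of 9, 7 of 7 and 4 of 6 in these lists. By spike-ins they were 9 of 9, 6 of 7 and 0 of 6. The 5 red blood cell markers summed to 6656 and 5639 TPM, with 5 of 5 ratios below 0 by TMM and 2 of 5 by spike-ins. The 5 markers of radial glia and astrocytes summed to 2408 and 3128 TPM, with 0 of 5 below 0 by either. Dcn is in both the network list and that of meninges and fibroblasts, so these lists are not separate. The part of the markers in these ratios was not tested.

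**Figure D4:**
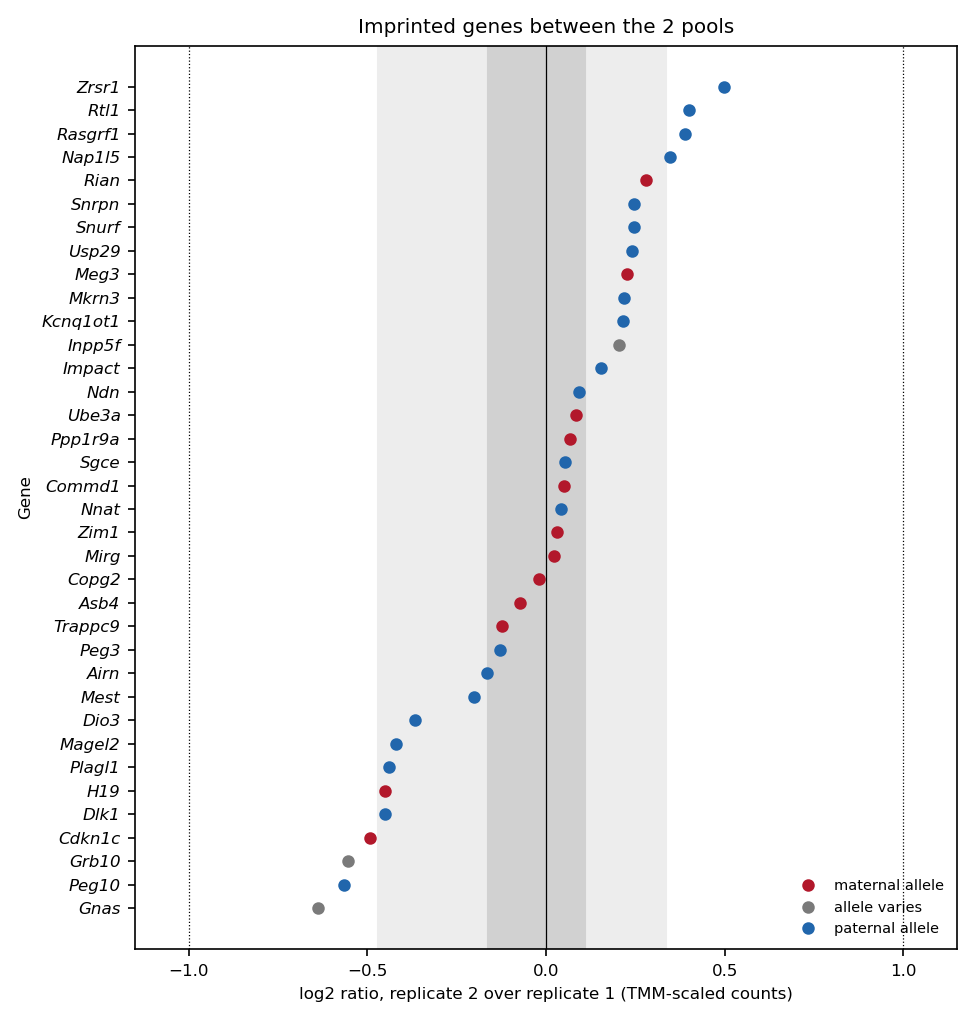
Log2 ratio of replicate 2 over replicate 1 from TMM-scaled counts for the 36 imprinted genes whose mean was at least 1 TPM, coloured by allele, with dark and light grey bands for the central 50% and 90% of protein-coding genes and dotted lines at 2-fold. All 36 lie between -0.64 and 0.50, within 2-fold.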

How the data were processed

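Per the labels, each replicate is 1 library of total RNA over 200 bases, extracted with Ambion mirVana, and the manual of the SMARTer Ultra Low kit is linked. The authors quantified them on mm10 with GENCODE M4, per the submitters' processing notes. With the tool and its strand setting not given in the sources used here, genes that overlap on opposite strands cannot be told apart in full. Counts were not whole in 11 members, among them Kcnq1ot1, Gnas and Inpp5f, so reads were shared there. Per the file headers, the values are expected counts, TPM and FPKM per gene and transcript, and the percent of a gene's TPM in each transcript was deposited too. The deposited bounds on TPM are treated as scores, since their level is not given. In 9 members the TPM lay outside its own bounds in a replicate, mostly in the most abundant ones.

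Identifiers were matched without version to GENCODE M21 on GRCm38, and 42462 of 43346 Ensembl identifiers had a name. The others took up 0.173% and 0.171% of counts in the replicates. Promoters and microRNAs came from RefSeq tables. For ratios between replicates, edgeR 4.0.16 under R 4.3.3 computed TMM factors on the rounded expected counts, leaving spike-ins out, with a prior count of 0.5. Spike-ins took 2.18% and 1.59% of counts. The ratio script was tested on simulated data. Tables were made in Python 3.11.15 with pandas 2.3.3. Alternatives were DESeq2 1.42.0 size factors, spike-in totals, deposited TPM or FPKM, other filters and prior counts, coding transcripts alone and leaving out a replicate. An SD covers the spread between 2 pools, with mice and preparation together.

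Named genes are every member, both genes of each pair, genes of the other imprinted and imprint maintenance lists at 10 TPM or more with the 3 lowest, and up to 3 of each marker list. Members and lists were chosen with earlier results of these data known.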

Additional observations from a re-analysis of the deposited data

How the results depend on the processing

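With 2 pools of 1 group, differences between them have no replicate check, and alleles were not measured. The number of members detected stayed between 30 and 37 across the thresholds of 0.5 and 5 TPM and coding transcripts alone, and no member was past 2-fold between the pools under any scaling, filter or prior count tried. The median level of 47.0 TPM was 28.2 in FPKM, 36.9 with coding transcripts alone, and between 40.7 and 49.1 with a replicate left out. The log2 ratio of the paternal over the maternal median, -0.52, was 0.61 with the mixed members as paternal, -1.05 with them as maternal, -0.91 over members at 1 TPM, and -0.78 to -0.29 with a replicate left out. It was 1.06 over protein-coding members alone, an alternative chosen after seeing the data. The median log2 ratio between the pools was 0.50 with spike-in totals and -0.0026 from deposited TPM, against 0.05. The spike-ins turned the sign of 11 members and deposited TPM that of 4 with ratios near 0. Among the further imprinted genes and maintenance factors, 1 was past 2-fold with spike-in totals, against 2. The median log2 ratio of the imprinted gene network turned to 0.11 with the spike-ins, which shift every gene by 0.45. With coding transcripts alone the log2 ratio of the paternal over the maternal sum of the Peg10-Sgce domain turned from 0.53 to -0.14, and no other domain turned. These 3 alternatives were also chosen after seeing the data. The median coding share was 98.9% at a mean of 5 TPM. With a replicate left out, 22 to 23 pairs differed. With coding transcripts alone, 8 of 23 pairs moved by more than their SD and no pair turned. The causes were not tested, except that some alternatives change the members or transcripts by construction. Low members such as Phlda2, with 8 counts in each pool, are the least precise. No paired analysis was possible because there is 1 group.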

Other observations

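Further genes outside the list, known as imprinted in at least some tissues, were also looked at. Alleles were not measured, so their levels do not show imprinted expression in hindbrain. Of 47 such genes 43 were measured, and 36 of these reached 1 TPM in both replicates. That level was reached by 63.5% of all protein-coding genes and 15.7% of all long noncoding genes. All protein-coding genes had a median of 5.82 TPM, and the 43 measured here had one of 7.58 TPM. The highest were Cd81, a tetraspanin, at 467 ± 30.2 TPM, Nap1l4 at 252 ± 4.38 TPM, Blcap at 246 ± 6.44 TPM, H13 at 147 ± 3.79 TPM and the growth factor gene Igf2 at 136 ± 9.45 TPM (SD, n = 2). Tssc4 was at 90.9 TPM, Dhcr7, the last enzyme of cholesterol synthesis, at 75.9 TPM, and Osbpl5, Casd1, Chrac1 and Pon2 between 34.3 and 36.7 TPM. Mcts2, Zfp64, Zdbf2, Herc3 and Begain lay between 20.4 and 28.7 TPM, and Cobl and Ampd3 at 12.6 and 12.2 TPM. The 3 lowest were Klf14 at 0.31 TPM, Tfpi2 at 0.54 TPM and Tnfrsf23 at 0.58 TPM. Of the 37 with a mean of at least 1 TPM, 2 were past 2-fold between the pools, both higher in replicate 1. Among all genes at that mean, 1.55% were past it on the side of replicate 1 and 2.95% on that of replicate 2. The 2 were Kcnq1, with a log2 ratio of -1.11, and Slc22a2, with -1.25, both named after their values were seen. Both were low, Kcnq1 at 1.86 and 1.11 TPM and Slc22a2 at 2.15 and 0.87 TPM in replicates 1 and 2. Scaled to the spike-ins neither was past 2-fold, at -0.66 and -0.81, and 1 other gene was, Slc22a3, higher in replicate 2 with 1.13.

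Of 17 genes that set or maintain the imprint, 15 reached 1 TPM in both replicates. The share of all protein-coding genes at that level was 63.5%. All protein-coding genes had a median of 5.82 TPM, and the 17 listed had one of 42.2 TPM. The list was chosen by name, so these values describe it and are not a random draw. The highest were the chromatin remodeller Atrx at 190 ± 13.0 TPM, Zfp57 at 181 ± 11.3 TPM and its partner Trim28 at 153 ± 17.3 TPM (SD, n = 2). The maintenance methyltransferase Dnmt1 was at 42.2 TPM, and the de novo enzyme Dnmt3a at 80.5 TPM. Ctcf, Ehmt2, Zfp445, Arid4b, Arid4a, Setdb1, Uhrf1 and Smchd1 lay between 20.5 and 76.8 TPM. The 3 lowest were Dnmt3b at 3.05 TPM, Dnmt3l, a cofactor of the germ line, at 0.04 TPM, and Dppa3, a factor of the egg, which was listed at 0 in both replicates.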
